A study of Mus musculus with 2 samples.

Results

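Yap1, its DNA-binding partners Tead1, Tead2 and Tead4, the kinases Lats1 and Lats2, the angiomotin Amotl2 and the secreted-protein genes Ctgf and Cyr61 were read from the deposited expression table by gene symbol, and all 9 were found among its 14398 genes. The table compares cultures of the mouse embryonic stem cell line 46C, which has a GFP reporter in the Sox1 gene, grown on gelatin in serum medium with leukemia inhibitory factor and labelled as passages 21 to 24. The control culture carried the empty PB vector, and the other carried PB-ID2 and overexpressed ID2, a helix-loop-helix protein that sequesters E proteins away from DNA. With a single library for each culture (n = 1), no value below has a replicate, an error or a test. "Higher" and "lower" describe ID2 cells relative to control cells, and every difference is between these 2 cultures only.

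In the Hippo pathway, the kinases MST1 and MST2 with their scaffold SAV1 activate LATS1 and LATS2, which phosphorylate YAP and its relative TAZ and so keep them in the cytoplasm. Unphosphorylated YAP enters the nucleus and binds TEAD factors, which bring it to genes such as Ctgf, Cyr61, Amotl2 and Lats2. Since AMOTL2 and LATS2 restrain YAP, the last 2 targets form a negative feedback. In the early mouse embryo TEAD4 with YAP specifies the trophectoderm, while in inner cells, the source of embryonic stem cells, Hippo signaling keeps YAP out of the nucleus. Most of this control acts on proteins, which RNA levels do not measure.

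The coactivator Yap1 and the TEAD factors Tead1 and Tead2 stood at nearly the same level in both cultures, Tead4 and Amotl2 were 1.35-fold and 1.30-fold higher in ID2 cells, and the low-level targets Ctgf and Lats2 were 1.69-fold and 1.45-fold higher. Each of these ratios lay within the range of most genes at a similar level. Values are the authors' normalized values, each pair gives the control library first, and ratios are of (value + 1) in the ID2 library over (value + 1) in the control library, on a linear (fold) or log2 scale. All 9 members had a mean of both libraries of at least 50, the floor used here, which 12679 genes of the table passed. These genes were split by that mean into 4 level classes of equal size, since ratios spread more widely at low levels. None of the 9 was at least 2-fold apart, a size that 2.53% of the 12679 genes reached upward and 1.86% downward. At 1.5-fold, Ctgf alone was higher and none was lower, against backgrounds of 8.00% higher and 6.59% lower. Higher, lower and equal genes were counted, by a choice made after seeing the data, on whole steps, the whole numbers left when the scaling of each library is undone (1 step is 0.995 in control and 1.005 in ID2 cells). Genes called equal have the same number of steps, which the scaling alone puts 0.01 apart on the log2 scale, as for Ctnna1, Nedd4 and Ywhae in the pathway lists. Medians are of the ratios as defined above. Of the members, 7 stood higher and 2 lower, with a median log2 ratio of 0.20, where the median of all genes above the floor was -0.00229. Over the 12679 genes, 47.2% stood higher and 51.5% lower in steps, and 163 were equal. In the authors' deposited table the unadjusted p of the members ran from 0.174 to 0.823, and every adjusted p was 1; these p-values compare single libraries and may rest on values whose distribution had been made the same in both libraries, as do the others quoted from that table.

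**Figure D1:**
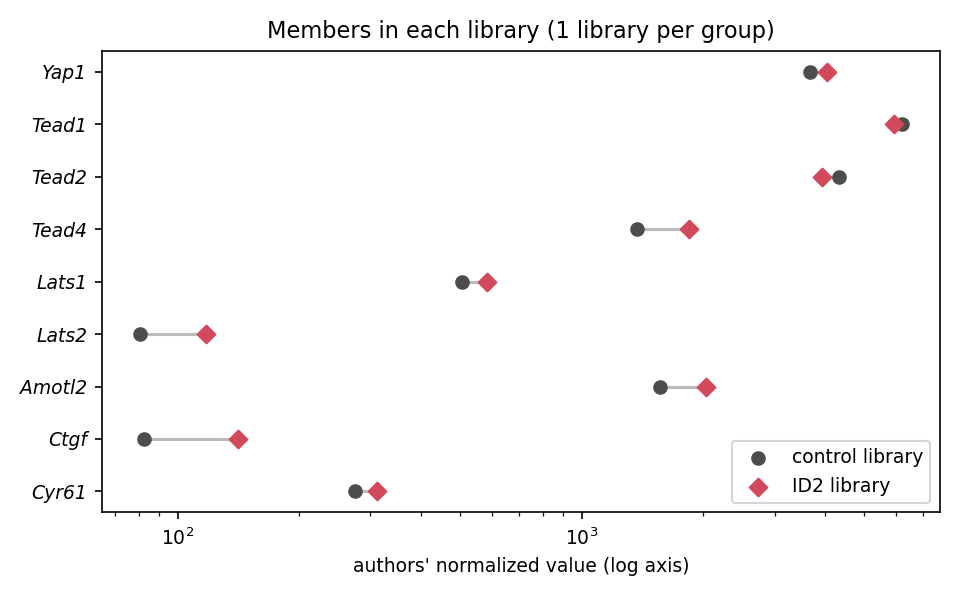
Normalized value of each member (log axis) in the control library (circles) and the ID2 library (diamonds), 1 library per group and no error bars. Ctgf, at 82.6 and 141, shows the widest gap in relative terms, and Tead1 and Tead2 are the 2 genes whose ID2 value lies to the left.

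TEAD factors recognise the letters CATTCC, read as GGAATG on the other strand, so the promoters of the members were searched for them on both strands. The RefSeq promoter table (build GRCm38.p6, 250 bases before and 50 after each start) held 7 windows for 6 of the 9 members and none for Tead1, Tead4 or Ctgf. The letters stood in 4 of the 7 windows, those of Cyr61, Amotl2, Yap1 and 1 of the 2 of Lats2, against 14.7% of all 32851 windows of this length. The sequences that carry them are shown because 3 of these genes are classical YAP targets, with the matched letters in capitals. The first 3 are the 250 bases before the start, and the Lats2 stretch is 30 bases around a match that begins at base 5 of the transcript.
Cyr61 (listed as Ccn1), chr3:145649986-145650235, minus strand: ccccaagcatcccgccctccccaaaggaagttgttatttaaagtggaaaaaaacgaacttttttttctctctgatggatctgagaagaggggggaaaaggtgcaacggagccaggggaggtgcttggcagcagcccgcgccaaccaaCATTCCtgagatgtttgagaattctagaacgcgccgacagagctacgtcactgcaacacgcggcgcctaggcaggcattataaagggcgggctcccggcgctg
Amotl2, chr9:102717554-102717803, plus strand: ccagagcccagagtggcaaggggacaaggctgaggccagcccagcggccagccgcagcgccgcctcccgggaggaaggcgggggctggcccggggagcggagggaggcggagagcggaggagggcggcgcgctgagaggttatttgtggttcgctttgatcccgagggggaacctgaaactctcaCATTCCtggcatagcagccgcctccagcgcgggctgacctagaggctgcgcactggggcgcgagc
Yap1, chr9:8004597-8004846, minus strand: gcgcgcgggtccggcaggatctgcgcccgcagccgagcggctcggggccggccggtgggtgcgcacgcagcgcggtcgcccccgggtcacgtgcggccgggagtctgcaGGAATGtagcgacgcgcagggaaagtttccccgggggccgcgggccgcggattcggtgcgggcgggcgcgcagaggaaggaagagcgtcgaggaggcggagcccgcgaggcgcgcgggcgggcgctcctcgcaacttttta
Lats2, chr14:57746102-57746131, minus strand: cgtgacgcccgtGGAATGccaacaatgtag
The match began 103 bases before the start in Cyr61, 65 bases before it in Amotl2 and 141 bases before it in Yap1. The windows of Tead2 and Lats1 did not hold these letters. A match describes the sequence only, and binding was not measured here.

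Id2 stood at 324 in control and 26225 in ID2 cells, in the direction of the labels, and the 3 core pluripotency factors were abundant in both, at 12770 and 13619 for Pou5f1, 11692 and 15076 for Sox2 and 14938 and 17563 for Nanog. All 10 stem cell markers were found, with summed values of 139210 and 162003. In whole steps 7 of them were higher, 2 lower and 1 equal. Zfp42 had the widest ratio (1.80-fold higher), Dppa5a (log2 ratio -0.08) and Fgf4 (-0.23) were lower, and Tdgf1 was equal. Of 10 trophectoderm markers, the lineage in which TEAD4 acts, 6 were found, with summed values of 4922 in control and 3406 in ID2 cells. Tfap2c (3697 and 2150) made up most of both sums. Eomes (163 and 219) and Krt8 (613 and 754) were higher in ID2 cells, and Krt18 (346 and 260) was lower. Krt7 (73.6 and 6.03) and Hand1 (28.9 and 17.1), both with a mean under the floor, were also lower. The trophectoderm regulators Cdx2, Gata3 and Elf5 were not among the genes of the table. Of 15 markers of fibroblasts and feeder cells, in which Ctgf and Cyr61 are abundant, 8 were found, with summed values of 3970 and 2492. Of 10 markers of extraembryonic endoderm, 6 were found, with summed values of 389 and 420, in which Sox7 (16.9 and 127) and Gata4 (146 and 76.4) went opposite ways. Sox7 and Gata4 are named because of their values. The part of these marker differences in the members' ratios was not tested. In bulk RNA, fewer cells of a type and less RNA per cell cannot be told apart.

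Yap1, the transcriptional coactivator itself, stood at 3671 in control and 4040 in ID2 cells. The ID2 value was 1.10-fold the control value (log2 ratio 0.14). Of the genes in the same level class, 52.6% had a ratio at least as far from equality in either direction. Its relative TAZ, encoded by Wwtr1, stood at 1548 and 1421 (log2 ratio -0.12), so the 2 coactivators leaned in opposite directions. Divided by exon length, Yap1 made up 73.1% of the summed Yap1 and Wwtr1 values in control and 76.5% in ID2 cells.

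Tead1, a TEAD factor of many tissues, stood at 6188 in control and 5933 in ID2 cells (log2 ratio -0.06). Tead2, the TEAD factor known for its expression in the early embryo and neural precursors, stood at 4333 and 3925 (log2 ratio -0.14). Both were slightly lower, within the range of most genes of their level class, of which 76.5% were at least as far from equality as Tead1 and 50.9% as Tead2. Tead4, the trophectoderm factor, stood at 1367 and 1846, which was 1.35-fold higher (log2 ratio 0.43). In its class of level 8.36% of genes had a ratio at least as high, and 14.5% were at least as far apart in either direction. Tead3, the remaining gene of the family and not a member, went the other way, at 563 and 339 (log2 ratio -0.73). Of the genes in its class, 7.82% were at least as far apart in either direction. In the class of Tead3, 2.90% of genes had a ratio as low or lower, and in the authors' deposited table its unadjusted p was 0.102 and its adjusted p 1.

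The makeup of the TEAD family thus differed between the libraries while its sum was nearly level. Values per kilobase of exon summed to 2417 over the 4 genes in control and 2336 in ID2 cells. Tead2 held the largest share in both, 51.2% and 48.0%. Tead1 kept about the same share, 25.5% and 25.3%. Tead4 went from 15.8% to 22.0%, a difference of 6.26 percentage points, and Tead3 from 7.57% to 4.71%. These shares have no spread between replicates behind them.

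**Figure D2:**
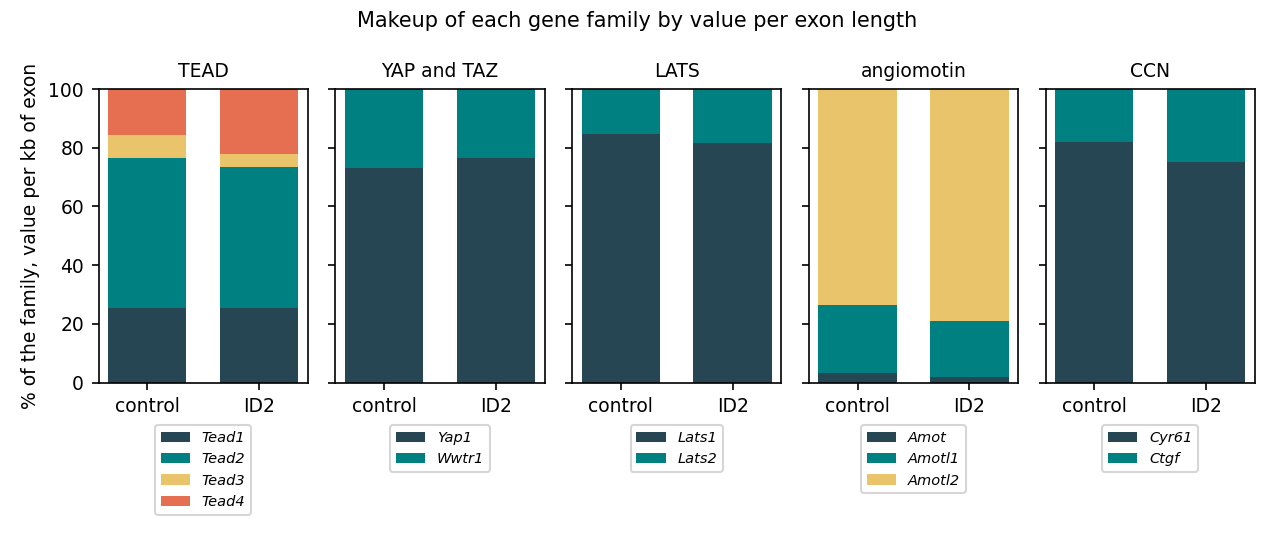
Stacked bars give each gene's percentage of its family's summed value per kilobase of exon, for the control and ID2 libraries, with 1 library per bar and no error bars. Tead4 takes 15.8% of the TEAD bar in control and 22.0% in ID2 cells, and Amotl2 takes 73.4% and 78.9% of the angiomotin bar.

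Lats1, the more abundant of the LATS genes, whose kinases phosphorylate YAP, stood at 506 in control and 582 in ID2 cells (log2 ratio 0.20). Lats2, its paralog and a YAP target, stood at 80.6 and 118, 1.45-fold higher (log2 ratio 0.54). Lats2 is a low-level gene, and 36.2% of genes in its class were at least as far apart. Per kilobase of exon, Lats1 stood at 69.3 and 79.7 and Lats2 at 12.5 and 18.2, so Lats1 made up most of the pair in both libraries (84.8% and 81.4%). In the GENCODE M21 annotation, 45.7% of the exon bases of Lats2 also belong to the gene Gm49361 on the same strand. By position, reads there cannot be assigned to 1 of them. Whether the authors' annotation held Gm49361 is not known.

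Amotl2, which holds YAP at junctions and actin and is also a YAP target, stood at 1563 in control and 2030 in ID2 cells. It was 1.30-fold higher (log2 ratio 0.38). In its class 11.1% of genes had a ratio at least as high, and 18.8% were at least as far apart in either direction. Its relatives did not share this direction, with Amotl1 at 1011 and 1005 (log2 ratio -0.00890) and Amot at 121 and 87.4 (log2 ratio -0.47). Of the genes in their level classes, 97.4% were at least as far apart as Amotl1 and 41.9% as Amot. Amotl2 made up 73.4% of the 3 angiomotins per exon length in control and 78.9% in ID2 cells.

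Ctgf, a matricellular protein gene widely used as a readout of YAP, stood at 82.6 in control and 141 in ID2 cells. This 1.69-fold ratio (log2 ratio 0.76) was the largest of the 9. In its class 11.8% of genes had a ratio at least as high, and 22.0% were at least as far apart in either direction. That class spans means of 50 to 257, and 17.2% of its genes were at least 1.5-fold higher. In the GENCODE M21 annotation, the gene Gm15270 on the other strand covers 22.9% of the exon bases of Ctgf, and the libraries do not keep strand. Whether the authors' annotation held Gm15270 is not known. Cyr61, the other CCN-family target, stood at 275 and 312 (log2 ratio 0.18), and 62.1% of genes in its class were at least as far apart. Per kilobase of exon Cyr61 was the more abundant of the 2, at 136 and 154 against 29.8 and 50.7 for Ctgf. The 4 other CCN genes, Nov, Wisp1, Wisp2 and Wisp3, were not among the genes of the table.

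**Figure D3:**
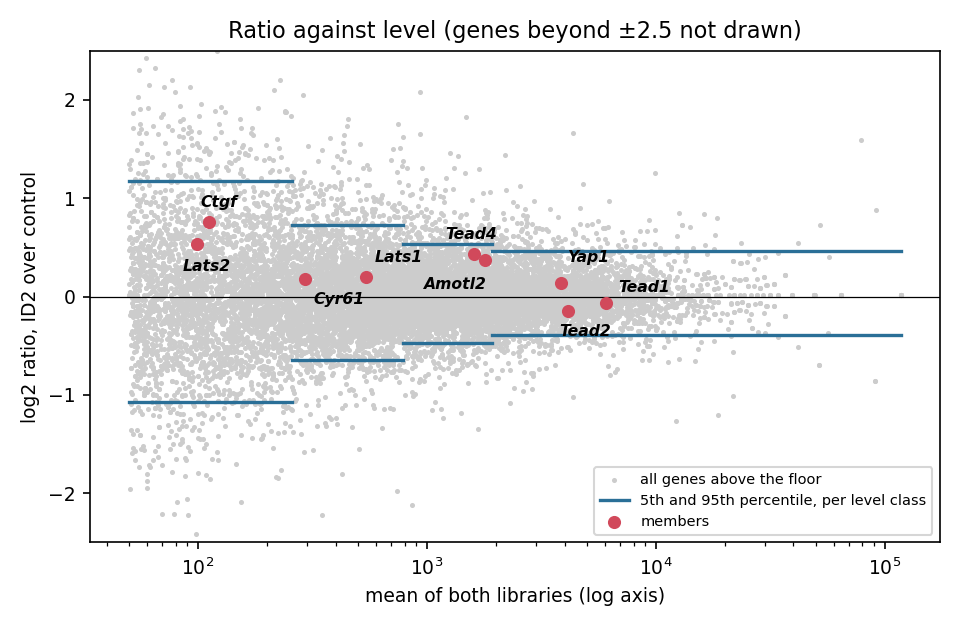
Log2 ratio of ID2 over control against the mean of both libraries (log axis) for all genes above the floor (grey) and the members (red); blue lines mark the 5th and 95th percentiles in each class of level. All 9 members lie between the lines of their class, which run from -1.07 to 1.17 in the lowest class and from -0.39 to 0.46 in the highest.

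Set in order by value per kilobase of exon, the members ran Tead2, Yap1, Tead1, Tead4, Amotl2, Cyr61, Lats1, Ctgf and Lats2, in both libraries. Tead2 stood at 1238 in control and 1121 in ID2 cells, and Lats2, the last, at 12.5 and 18.2. Tead4 and Amotl2 were neighbours at 381 and 350 in control and 514 and 455 in ID2 cells. With no replicates, no neighbours in this order can be shown to differ beyond their spread. With the length of the longest transcript in place of all exons, Tead4 (600) and Tead1 (595) changed places in the ID2 library.

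Around the members, 93 further pathway genes were listed, of which 79 were above the floor. In whole steps, 40 of these stood higher, 36 lower and 3 equal, and their median log2 ratio was 0.02. At 1.5-fold, 3 were higher and 5 lower. These shares were 3.80% and 6.33%, beside pooled backgrounds of 8.00% and 6.59% that are not matched for level. Past 1.5-fold, the lowest level class held 17.2% of its genes upward and 15.9% downward. The highest class held 2.56% and 1.29%. Whether the 79 genes departed from others of their own levels was not tested.

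The kinase cascade stayed within 1.5-fold. Of 19 kinases, scaffolds and cofactors, Lats1 and Lats2 included, 10 were higher and 9 lower (median 0.02). Stk4 (MST1) stood at 1883 and 2353 (log2 ratio 0.32) and Stk3 (MST2) at 597 and 659 (0.14). Sav1, the scaffold of both, stood at 635 and 776 (0.29). Outside the members, the widest ratios belonged to Taok2, a kinase upstream of MST (2213 and 3264, 0.56), and Map4k3, of a kinase family that can act on LATS beside MST (1459 and 2102, 0.53).

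Genes of the inputs from junctions and polarity stood on both sides, with 10 higher, 9 lower and 1 equal of 20 in whole steps (median log2 ratio 0.04). Nf2, the tumor suppressor Merlin, which recruits LATS to the membrane, stood at 5134 and 6936 (log2 ratio 0.43). Ptpn14, a phosphatase that binds YAP and is also one of its targets, stood at 2052 and 3386 (0.72). In its class 1.23% of genes had a ratio at least as high, and 1.99% were at least as far apart in either direction. Crb3, an apical polarity protein, stood at 583 and 265 (-1.13). For Crb3, 0.757% of genes in the class had a ratio as low or lower, and 2.05% were at least as far apart in either direction. Inadl, its partner in the Crumbs complex, stood at 237 and 158 (-0.58). It is a gene of the lowest level class, where 33.2% of genes were at least as far apart. Mpp5, on the same list, stood at 1056 and 974 (-0.12). In the authors' deposited table the unadjusted p was 0.0139 for Ptpn14 and 0.0138 for Crb3, and the adjusted p was 0.846 for both.

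Among inhibitors of LATS and the STRIPAK phosphatase complex, which removes the activating mark from MST, 9 of 15 were higher, 5 lower and 1 equal in whole steps (median log2 ratio 0.06). Ajuba and Limd1, LIM proteins that hold LATS inactive, stood at 2297 and 3245 (log2 ratio 0.50) and at 406 and 535 (0.40). Strn3, a STRIPAK subunit, stood at 0.28 and Rassf1, an MST-binding tumor suppressor, at -0.28 on the same scale. Of 13 genes of YAP retention and turnover, 7 were higher, 5 lower and 1 equal in whole steps (median log2 ratio 0.05). The 14-3-3 genes, whose products hold phosphorylated YAP in the cytoplasm, differed in direction, with log2 ratios of 0.37 for Ywhag, 0.32 for Ywhab, 0.22 for Ywhah and -0.40 for Ywhaq. Ywhaz (-0.14) and Sfn (-0.18) were also lower. Ywhae, the one with the highest values (64228 and 64854), was equal in whole steps. Vgll4, which competes with YAP for TEAD, stood at 234 and 284 (0.28).

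Of 22 genes of a YAP and TEAD target signature, 17 were above the floor and 5 were not among the genes of the table, Ankrd1, a muscle-linked target, among them. Of the 17, 11 were higher and 6 lower, with a median log2 ratio of 0.29. At 1.5-fold 4 were higher and 3 lower (23.5% and 17.6% of the 17), where the shares over all genes were 8.00% and 6.59%. At 2-fold 1 was higher and 1 lower, beside 2.53% and 1.86% of all genes. These shares over all genes are not matched for level. Fjx1, Ctgf and Igfbp3, all past 1.5-fold, lie in the lowest level class, where 17.2% of genes reached it upward and 15.9% downward. Whether the 17 genes departed from others of their own levels was not tested. The 4 members in the signature, Ctgf, Lats2, Amotl2 and Cyr61, were all among the higher genes. Fjx1, a secreted regulator of planar polarity, stood at 51.7 and 151, the highest ratio of the list (1.52). Fjx1 is a gene of 1 exon, and of 1703 coding genes with at least 80% of the longest transcript in 1 exon, 18.0% reached 1.5-fold upward, against 5.79% of other coding genes. Of the 9 members Tead1 alone belongs to that group, with 82.9% of its longest transcript in 1 exon. Ctgf, with 78.4%, lies just under the limit. Among other genes named here, Sox2, Sox7, Zfp42, Ywhag and Ywhah, all higher, and Fgf4 and Sfn, both lower, also have at least 80% in 1 exon. The part of this exon makeup in the ratios of Fjx1, Ctgf and these genes was not tested.

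The lower genes of the signature were Gadd45b, a stress-response gene, at 1652 and 703 (log2 ratio -1.23), Igfbp3, an IGF-binding protein, at 283 and 157 (-0.85), and 4 more. For Gadd45b, 0.410% of genes in its class were at least as far apart in either direction. In the class of Gadd45b, 0.0947% of genes had a ratio as low or lower, and its p in the authors' deposited table was 3.40e-04 unadjusted and 0.114 adjusted. F3, the initiator of coagulation, stood at 372 and 229 (-0.70), and Asap1, a regulator of ARF GTPases, at 816 and 1256 (0.62); both were chosen after their values were seen, as the other genes past 1.5-fold. The targets therefore did not share 1 direction.

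**Figure D4:**
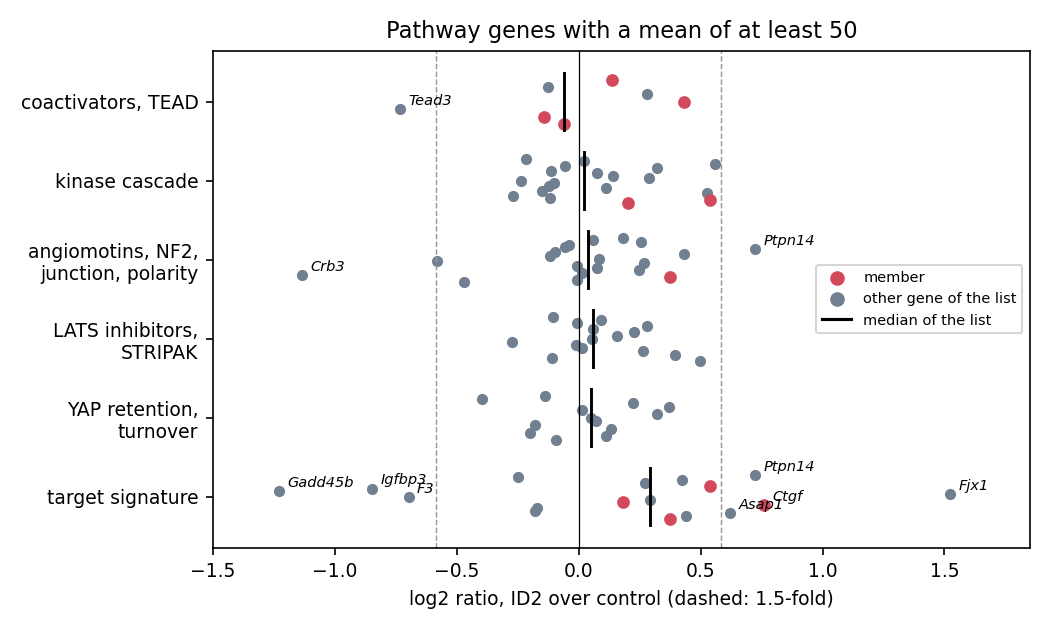
Log2 ratio of each gene above the floor in 6 pathway lists, with members in red, other genes in blue-grey, a black bar at the median of each list and dashed lines at 1.5-fold. The target signature spreads from -1.23 (Gadd45b) to 1.52 (Fjx1), while the kinase cascade stays within the dashed lines.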

How the data were processed

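RNA was sequenced from 1 control and 1 ID2 culture with TruSeq v2 libraries, per the labels' protocols. STAR, DESeq and build mm9 are named in the submitters' processing notes. Which versions, annotation and counting tool were used is not given in the sources used here. For each gene the table gives a normalized signal value per library, deposited with the authors' fold, log2 fold, p-value and adjusted p-value. Undoing the scaling of the deposited signal values left whole numbers that, once sorted, were identical in both libraries (0 ranks differed). Such values share a distribution imposed before the size factors, so the depth is unknown and no counting interval could be given.

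Ratios used a pseudocount of 1, which understates those of low genes, and a floor of 50 on the mean. Folds of 2 and 1.5 were counted by size alone, with no test, and directions on the whole numbers. The genes above the floor were split by mean into 4 level classes of equal size. Exon lengths came from GENCODE M21 (GRCm38), not the authors' build. By rule, each list named at most 4 non-members with the widest ratios, beside 10 genes fixed by name. Further genes, such as F3, Asap1, Axl, Crim1, Myof and Nt5e, were named outside this rule with their values known. Members, lists and rules were chosen with earlier results of these data known. The functions were tested on simulated data. Alternatives covered pseudocount, scaling, floor, length and the authors' log2 column. Protein sequences were not used here. Python 3.11.15 with pandas 2.3.3 was used.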

Additional observations from a re-analysis of the deposited data

How the results depend on the processing

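The log2 ratios of the 9 members stayed within 0.1 of the reported values in all 45 recomputations, over pseudocounts of 0.1 and 10, the scaling to a median ratio of 1, whole steps and the authors' own log2 column, and none changed sign. Several of these settings could hardly move a ratio that far, so this is no measure of stability. The whole steps, the target signature without Fjx1 and the longest-transcript lengths were chosen after seeing the data. With a floor of 250, which removes Ctgf and Lats2, the number of members at least 1.5-fold higher was 0 in place of 1, the median of the CCN family was 0.18 (Cyr61 alone), and the signature held 2 genes at least 1.5-fold and 0 at least 2-fold higher. Without Fjx1 the signature also held 0 genes at least 2-fold higher. Over the whole table, the 2-fold counts were 551 higher and 470 lower without a floor, and 105 and 53 with a floor of 250. At 1.5-fold, 1286 were lower without a floor, and 478 were higher and 339 lower with a floor of 250. List medians near 0 could change sign: that of the coactivators and TEAD partners was 0.04 without a floor, and that of the kinase cascade -0.05 without the members. No paired analysis was possible because each group has 1 library. Unknown depth limits every ratio, most of all those of Ctgf and Lats2.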

Other observations

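Of the 22 genes of the YAP and TEAD target signature, 15 had a promoter window in the RefSeq table, and 7 of these held CATTCC or GGAATG. Over all 27025 symbols with a window, 16.6% held the letters in at least 1 window. The 7 genes were the members Amotl2, Lats2 and Cyr61 and, named after their values were seen, Ankrd1, Axl, a receptor tyrosine kinase, Crim1, a transmembrane BMP antagonist, and Ptpn14. Of the genes of the table among them, Axl stood at 382 in control and 338 in ID2 cells (log2 ratio -0.18) and Crim1 at 199 and 177 (-0.17), lower where the other 4 were higher. The windows of Gadd45b and Igfbp3, the lowest genes of the signature, and of F3, also lower, did not hold these letters. Those of Myof (log2 ratio 0.27) and Nt5e (0.42), both higher, did not hold them either.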
